A study of Mus musculus with 28 samples.

Results

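The 3 peroxisome proliferator-activated receptors, PPARalpha, PPARdelta and PPARgamma, were read in mouse heart through every probe set annotated to their genes Ppara, Ppard or Pparg. These 3 genes, of 18193 with a probe set of their own on the array, were covered by 7 of the 45037 probe sets tested. Ppara had 3 probe sets of its own, Ppard 2 and Pparg 1, and the probe set 1447902_at was annotated to both Ppard and the long noncoding RNA 1810013A23Rik. Total RNA from frozen hearts of 28 mice was hybridised to 1-colour oligonucleotide arrays. Each of the 4 groups held 7 mice, each read on its own array. The groups were del337TR mice given WY14643, untreated del337TR mice, control mice given WY14643 and untreated control mice. The study is titled for resistance to thyroid hormone, and the labels describe the del337TR strain only as carrying a deletion in 337TR. WY14643 is a synthetic activator of PPARalpha. The sources used here do not give the genetic background, how the mutant receptor is expressed, the animals' age and sex, or the dose, route and duration of WY14643. Separate animals are taken from the study's own wording.

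PPARs are nuclear receptors that bind fatty acids and their derivatives and act on DNA as heterodimers with a retinoid X receptor (RXR). PPARalpha is the main driver of fatty acid oxidation genes in heart and liver, PPARdelta does related work in heart and skeletal muscle, and PPARgamma drives fat cell formation and lipid storage and is sparse in heart muscle cells. Thyroid hormone receptors also pair with RXR, and both receptor families read repeats of the hexamer AGGTCA, spaced by 1 base (DR1) for PPARs and typically by 4 bases (DR4) for thyroid hormone receptors. The comparisons asked whether the receptors' own transcripts differed with WY14643, with the strain, or with WY14643 to a different extent in the strains.

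The start regions of the 3 genes are shown because they are the stretches in which such a hexamer would stand closest to the start of each receptor gene. Each window runs from 250 bases before to 50 bases after an annotated start, 5′ to 3′, from RefSeq on GRCm38.p6, in lower case with AGGTCA in capitals. Pparg had 3 such windows, of which those at starts 1 and 3 are printed.
Ppara, chr15:85735526-85735825, plus strand: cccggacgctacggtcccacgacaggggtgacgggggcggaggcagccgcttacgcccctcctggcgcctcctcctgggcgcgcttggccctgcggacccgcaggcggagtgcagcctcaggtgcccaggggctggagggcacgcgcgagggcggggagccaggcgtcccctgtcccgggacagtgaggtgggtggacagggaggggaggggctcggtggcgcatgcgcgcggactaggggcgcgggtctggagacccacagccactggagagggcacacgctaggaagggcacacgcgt
Ppard, chr17:28232504-28232803, plus strand: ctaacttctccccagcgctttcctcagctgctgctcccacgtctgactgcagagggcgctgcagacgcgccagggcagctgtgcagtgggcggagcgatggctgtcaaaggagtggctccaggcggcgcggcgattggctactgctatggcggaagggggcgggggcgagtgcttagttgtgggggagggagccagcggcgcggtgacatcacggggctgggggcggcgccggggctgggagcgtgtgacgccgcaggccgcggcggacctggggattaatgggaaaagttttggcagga
Pparg, start 1, chr6:115360894-115361193, plus strand: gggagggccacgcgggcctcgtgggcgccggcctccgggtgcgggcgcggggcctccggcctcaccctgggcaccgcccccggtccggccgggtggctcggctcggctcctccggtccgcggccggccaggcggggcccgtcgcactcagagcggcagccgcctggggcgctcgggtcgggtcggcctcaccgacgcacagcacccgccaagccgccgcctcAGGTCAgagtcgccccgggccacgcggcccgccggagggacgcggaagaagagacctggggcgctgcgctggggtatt
Pparg, start 3, chr6:115421816-115422115, plus strand: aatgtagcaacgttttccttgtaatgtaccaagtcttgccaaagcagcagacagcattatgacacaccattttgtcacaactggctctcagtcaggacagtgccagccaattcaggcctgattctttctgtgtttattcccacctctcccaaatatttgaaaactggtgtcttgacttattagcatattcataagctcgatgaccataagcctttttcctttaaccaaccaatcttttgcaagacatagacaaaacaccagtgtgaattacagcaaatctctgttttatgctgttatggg
The letters AGGTCA were searched on both strands. The Ppara and Ppard windows held no match. The Pparg window at start 1 held 1 on the plus strand at position 223, counted from the window's 5′ end, that at start 2 held 1 at position 242 and that at start 3 held none. Of 32851 windows of this length over all genes 16.3% held at least 1 match. The DR1 letters AGGTCANAGGTCA stood in none of the 5 windows and in 0.0396% of all windows, and the DR4 letters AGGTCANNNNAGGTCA in none and in 0.0152%. The windows differed in base composition. G and C made up 74.7% of the Ppara window, 68.3% of the Ppard window, 80.3%, 62.7% and 40.3% of the Pparg windows at starts 1, 2 and 3, and 52.7% of the median window.

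Values are the authors' deposited signals on a linear scale, and changes are log2 differences of group means with limma's standard error (SE). A call required an adjusted p under 0.05 over all 45037 probe sets. None of the 7 PPAR probe sets was called in any of the 7 contrasts. The share of all probe sets called was 0.00222% for strain without WY14643 and 0% in the others. An unadjusted limma p under 0.05 was found for 5 of the 7 with WY14643 in del337TR, where 5.78% of all probe sets had one, and for 1 of 7 with WY14643 in controls, against 6.75%. It was found for 4 of 7 between strains under WY14643, against 8.86%, and for 1 of 7 between untreated strains, against 4.01%. It was found for 3 of 7 in each of the remaining contrasts, against 7.5% for WY14643 over both strains, 7.66% for strain over both treatments and 4.9% for the difference between the strains' WY14643 effects. The 5 with WY14643 in del337TR were 4 lower and 1 higher. The higher one was 1447902_at, annotated to 2 genes. That probe set was also the 1 between untreated strains, where it was lower, and 1 of the 3 for the difference between the WY14643 effects. The 7 probe sets include 3 readings of the same Ppara transcript, so these counts are not counts of separate genes, and contrasts that use the same group share its arrays. In whole hearts, fewer cells of a type and less RNA per cell cannot be told apart.

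**Figure D1:**
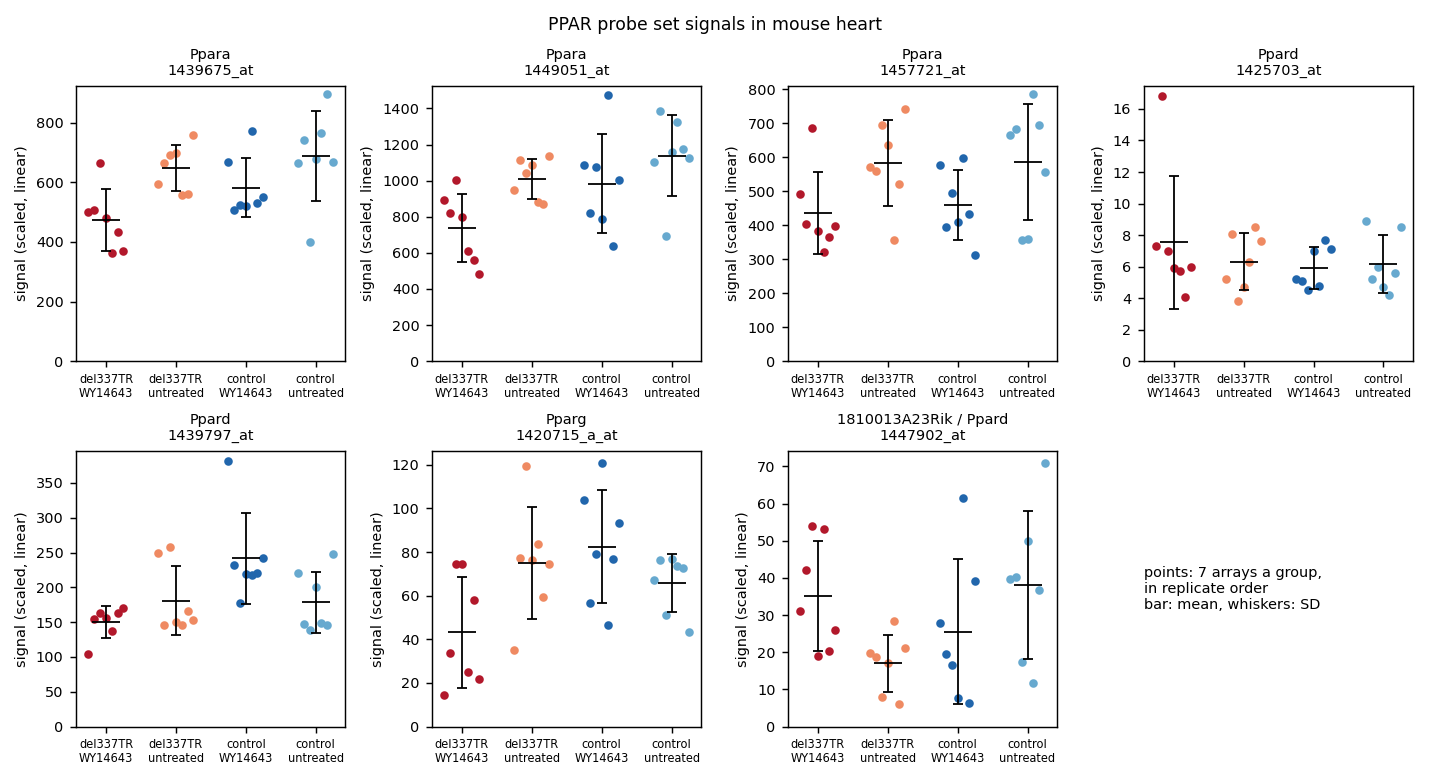
Signals (scaled, linear axis from 0) of the 7 PPAR probe sets on 28 arrays, 1 panel per probe set, with points in replicate order and the mean and SD of each group of 7. In the Ppard panel 1439797_at all 7 del337TR arrays with WY14643 lie below all 7 control arrays with WY14643, and in the 3 Ppara panels the treated del337TR group has the lowest mean.

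Ventricular muscle genes were present on every array (Myh6 from 11949.2 to 20931.5), and none of the marker genes measured was listed at 0. The summed signal of 3 atrial muscle genes, Myl4, Myl7 and Sln, ran from 116.4 to 33331 over the arrays. Its part in the results was not tested beyond the covariate values given with them. The summed signal of the 3 measured of 5 fat cell markers, Adipoq, Cidec and Retn, ran from 59.6 to 188.3 in del337TR with WY14643, from 179.1 to 393.2 in untreated del337TR, from 142.5 to 294.6 in controls with WY14643 and from 136.6 to 414.3 in untreated controls. Xist and Eif2s3y signals split the arrays into 1 female and 6 male in del337TR with WY14643, 4 and 3 in untreated del337TR, 3 and 4 in controls with WY14643 and 2 and 5 in untreated controls.

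Ppara, the receptor that WY14643 binds, had lower signals with WY14643 than without it on each of its 3 probe sets and in both strains, by differences that did not pass the test. On 1449051_at the lowest, median and highest signals were 480.7, 799.9 and 1001.6 in del337TR with WY14643, against 870.8, 1043.9 and 1134 in untreated del337TR. In controls they were 639.4, 1001.7 and 1475.8 with WY14643, against 694, 1159.8 and 1386 without it. In del337TR 5 of the 7 treated arrays lay below every untreated array, while the treated and untreated controls overlapped over nearly their whole range. The group means were 738 ± 191 (SD, n = 7 each) in del337TR with WY14643, 1011 ± 111 in untreated del337TR, 983 ± 272 in controls with WY14643 and 1139 ± 222 in untreated controls. The order of the 4 groups was thus treated del337TR lowest and untreated controls highest, and the ranges of untreated del337TR and treated controls, the neighbours in the middle of that order, overlapped.

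The second Ppara probe set, 1439675_at, had 362.1, 480.7 and 664.9 as lowest, median and highest in del337TR with WY14643, against 559, 666.3 and 758.6 in untreated del337TR. Of the treated del337TR arrays 6 of 7 lay below every untreated one, and replicate 3 was within the untreated range. In controls the same probe set had 508.2, 532.2 and 771.8 with WY14643, against 400.2, 678.6 and 897.3 without it, and the treated range lay inside the untreated one. The third, 1457721_at, had 320.1, 399.4 and 685.8 in treated and 358.2, 571.4 and 741.1 in untreated del337TR, and 312.6, 433.4 and 596.8 in treated and 355.5, 666.2 and 787 in untreated controls. On this probe set the treated and untreated ranges overlapped widely in both strains.

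Over both strains the WY14643 difference of Ppara was -0.35 ± 0.11 (SE) on 1439675_at (limma adjusted p = 0.468). It was -0.36 ± 0.13 on 1449051_at (limma adjusted p = 0.556) and -0.37 ± 0.14 on 1457721_at (limma adjusted p = 0.581). The median of all probe sets in this contrast was -0.01. The 3 estimates therefore correspond to folds of 0.787, 0.779 and 0.771, within 1 SE of each other, and 13 of 14 treated arrays lay below the median of the 14 untreated arrays on each probe set. Within del337TR the differences were -0.47 ± 0.15, -0.49 ± 0.18 and -0.43 ± 0.20, in the same order of probe sets, and within controls -0.22 ± 0.15, -0.23 ± 0.18 and -0.32 ± 0.20. The difference between these effects, del337TR minus control, was -0.25 ± 0.21, -0.26 ± 0.25 and -0.11 ± 0.29, with 95% intervals from -0.69 to 0.19, from -0.78 to 0.26 and from -0.70 to 0.48. The intervals include 0 and also effects in del337TR that are larger by 0.5 or more on the log2 scale. Replicate 3 of the untreated controls had the lowest untreated signal on each of the 3 probe sets, on 1457721_at by little (355.5, next lowest 358.2). Without it the differences in controls were -0.35, -0.34 and -0.43. At the other end, the difference was -0.15 on 1439675_at without replicate 6 of the untreated controls, -0.13 on 1449051_at without replicate 6 of the treated controls and -0.23 on 1457721_at without replicate 7 of the treated controls. With the fat cell markers as a covariate the del337TR differences were -0.36 ± 0.21, -0.41 ± 0.25 and -0.37 ± 0.29. Over all alternative fits apart from leaving 1 array out, with sex as a covariate among them, they ran from -0.51 to -0.36, from -0.53 to -0.41 and from -0.47 to -0.37.

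The Ppara differences between strains without WY14643 lay near 0. The untreated difference, del337TR minus control, was -0.06 ± 0.15 on 1439675_at, -0.15 ± 0.18 on 1449051_at and 0.02 ± 0.20 on 1457721_at, with 95% intervals that reached from -0.52 to 0.44 over the 3. Under WY14643 the differences were -0.31 ± 0.15, -0.41 ± 0.18 and -0.09 ± 0.20 (limma adjusted p = 0.563, 0.507 and 0.941). All 7 treated del337TR arrays lay below the median treated control on 1449051_at, 6 did so on 1439675_at and 5 on 1457721_at. The 3 probe sets followed each other from array to array. After group means were removed, their log2 signals correlated at Pearson r of 0.84 (1449051_at with 1439675_at), 0.77 (1457721_at with 1439675_at) and 0.63 (1457721_at with 1449051_at) over 28 arrays, as a description of readings of 1 RNA sample.

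Ppard was read by 2 probe sets that did not behave alike. The probe set 1425703_at stayed at the low end of the range, from 3.8 to 16.8 over all 28 arrays, and no fold is given for it. The other, 1439797_at, had a lowest, median and highest signal of 103.5, 156.5 and 169.7 in del337TR with WY14643 and 145.7, 153 and 257.5 in untreated del337TR. In controls it had 178, 220.3 and 381.9 with WY14643 and 138.8, 148.7 and 248.5 without. All 7 treated del337TR hearts lay below all 7 treated control hearts, the single case without overlap among 28 pairs of groups looked at for the 7 probe sets. Over all probe sets the groups did not overlap for 0.107% in this comparison. The shares were 0.0733% for WY14643 in del337TR, 0.0866% for WY14643 in controls and 0.0688% for strain without WY14643.

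The mean Ppard signal on 1439797_at was 150 ± 22.9 (SD) in del337TR with WY14643, 181 ± 49.98 in untreated del337TR, 242 ± 65.0 in controls with WY14643 and 178 ± 44.2 in untreated controls. The untreated groups were alike in range, and 7 of 7 treated controls lay above the median of the untreated controls. The difference between strains under WY14643 was -0.67 ± 0.18 (limma adjusted p = 0.403), a fold of 0.628. The 95% interval ran from -1.03 to -0.31. Without WY14643 it was 0.01 ± 0.18 (95% interval -0.35 to 0.38). WY14643 differences had opposite signs in the strains, at -0.25 ± 0.18 in del337TR and 0.44 ± 0.18 in controls. The difference of the WY14643 effects was -0.68 ± 0.25 (limma adjusted p = 0.956). With sex as a covariate the strain difference under WY14643 was -0.70 ± 0.18, with the atrial score -0.68 ± 0.18 and with the fat cell markers -0.83 ± 0.21. When the log2 values of both Ppard probe sets were averaged, the strain difference under WY14643 was -0.21 ± 0.15, the WY14643 difference -0.04 ± 0.15 in del337TR and 0.20 ± 0.15 in controls, and the difference of these -0.24 ± 0.21. That average gives the dim 1425703_at, from 3.8 to 16.8, the same weight as 1439797_at, so it is not a better reading of the gene. The WY14643 difference in del337TR on 1439797_at was -0.47 ± 0.24 with the fat cell markers as a covariate, and -0.16 without replicate 1 of the treated or without replicate 1 or 3 of the untreated del337TR hearts. Replicate 1 of the treated controls, at 381.9, stood apart from its group, and without it the WY14643 difference in controls was 0.32.

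Pparg, the receptor of fat cell formation, was read by 1 probe set, 1420715_a_at. Its lowest, median and highest signals were 14.4, 33.6 and 74.6 in del337TR with WY14643, against 34.9, 76.3 and 119.6 in untreated del337TR. In controls they were 46.4, 79.2 and 121 with WY14643, against 43.4, 72.9 and 76.7 without. The treated del337TR arrays split widely, with replicates 1, 2, 5 and 7 at 14.4, 33.6, 25.2 and 21.7, below every array of the treated and untreated controls and of untreated del337TR, and replicates 3, 4 and 6 at 74.5, 74.6 and 58.1 within those ranges. The means were 43.2 ± 25.5 (SD) in del337TR with WY14643, 75.03 ± 25.6 in untreated del337TR, 82.5 ± 26.0 in controls with WY14643 and 65.9 ± 13.2 in untreated controls.

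The log2 difference of Pparg with WY14643 was -0.96 ± 0.32 in del337TR (limma adjusted p = 0.767) and 0.29 ± 0.32 in controls. Between strains it was -1.11 ± 0.32 under WY14643 (limma adjusted p = 0.403), a fold of 0.463, and 0.14 ± 0.32 without it. The difference of the WY14643 effects was -1.25 ± 0.45, with a 95% interval from -2.18 to -0.32 (limma adjusted p = 0.956). Fat cell marker sums were lowest in the same group, from 59.6 to 188.3 in treated against 179.1 to 393.2 in untreated del337TR. With these markers as a covariate the Pparg difference with WY14643 in del337TR was -0.91 ± 0.46, and the strain difference under WY14643 was -1.07 ± 0.40. Over all alternative fits apart from leaving 1 array out, with sex as a covariate among them, the former ran from -1.02 to -0.69 and the latter from -1.19 to -0.81. Within groups Pparg did not follow Adipoq, the gene of the fat cell hormone adiponectin (Pearson r = -0.05, permutation p = 0.779, adjusted p = 0.921, and Spearman rho = -0.06, permutation p = 0.765). That r was 0.53 among the 10 female and -0.22 among the 18 male hearts. Of the 8 PPARgamma target genes of fat cells bright enough to be ranked, 6 had an r above 0 with Pparg (median 0.24, all genes -0.02). With Ppara 7 of the 8 did (median 0.12, all genes 0.01) and with Ppard 5 (median 0.20, all genes -0.0019). Of all genes ranked 46.1% had an r above 0 with Pparg, 51.4% with Ppara and 49.6% with Ppard.

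**Figure D2:**
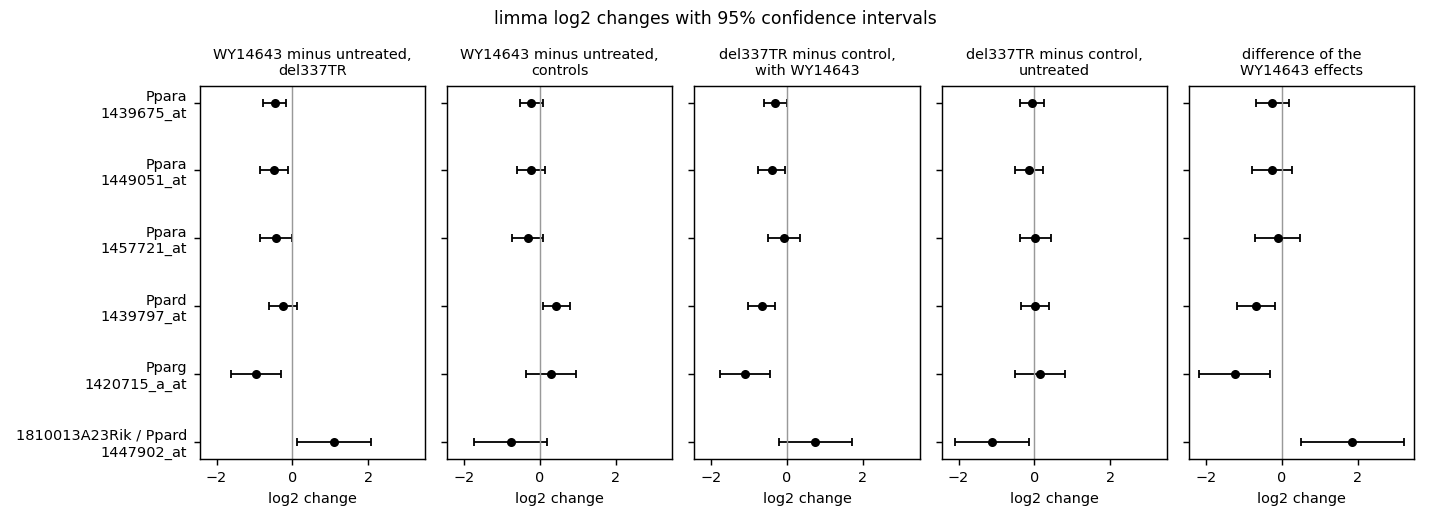
Log2 changes (x axis) of the 6 PPAR probe sets given a fold (y axis) in 5 contrasts, points with 95% confidence intervals from limma. Ppara points lie left of 0 in both WY14643 panels, while Ppard (1439797_at) and Pparg lie left of 0 with WY14643 in del337TR and right of 0 with WY14643 in controls.

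The probe set annotated to both 1810013A23Rik and Ppard, 1447902_at, cannot be given to either gene, since the noncoding gene lies within Ppard on the RefSeq map. With WY14643 in each strain, and between strains under WY14643, its differences had the opposite sign to those of 1439797_at, while over both strains and over both treatments the signs were the same. The lowest, median and highest were 19.1, 31.1 and 54.1 in del337TR with WY14643, 6.1, 18.6 and 28.3 in untreated del337TR, 6.3, 19.5 and 61.4 in controls with WY14643 and 11.7, 39.7 and 70.9 in untreated controls. Untreated del337TR hearts all lay below the median untreated control, and treated del337TR hearts all lay above the median untreated del337TR heart. The difference was 1.10 ± 0.47 with WY14643 in del337TR, -0.76 ± 0.47 in controls and -1.12 ± 0.47 between untreated strains. The difference of the WY14643 effects was 1.86 ± 0.66 (limma adjusted p = 0.956). Signals this low depend on how low values are treated, and with 16 added to each signal this difference was 1.04.

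The partners of the PPARs were read from lists of genes. None of the 3 RXR genes passed the test. Rxra, the RXR gene paired with PPARs in most tissues, stood at 0.06 ± 0.12 with WY14643 in del337TR and 0.01 ± 0.12 in controls on its brightest probe set, Rxrb at -0.01 ± 0.17 and 0.14 ± 0.17, and Rxrg, the RXR gene of striated muscle, at -0.10 ± 0.10 and -0.15 ± 0.10. The probe sets of Rxra disagreed, since a dimmer one stood at -0.37 ± 0.31 and -0.42 ± 0.31 and the dimmest at 0.28 ± 0.32 and 0.08 ± 0.32. Of 10 coactivator genes none passed the test in any contrast. With WY14643 9 of 10 lay below 0 in del337TR (median -0.06, all probe sets 0.02) and 8 of 10 in controls (median -0.05, all probe sets -0.03). Of all probe sets 53.1% lay above 0 in del337TR and 44.6% in controls. Ppargc1a, which encodes the PPAR coactivator PGC-1alpha of mitochondrial biogenesis, stood at -0.49 ± 0.23 with WY14643 in controls. Its lowest, median and highest signals there were 674.1, 1242.2 and 2347 with WY14643 and 1083.3, 1713.9 and 2478.9 without. Lpin1, whose protein lipin assists PPARalpha in the liver of mice, had 534.8, 886.6 and 969.4 in del337TR with WY14643 against 887.1, 1471.9 and 1877.4 in controls with WY14643, a difference of -0.75 ± 0.19 (limma adjusted p = 0.403). None of the 4 measured of 6 corepressor genes passed. Nrip1, a corepressor of nuclear receptors in metabolic tissues, stood at 0.14 ± 0.06 with WY14643 over both strains (limma adjusted p = 0.660).

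Target genes of the PPARs did not pass the test either, in any of the 7 contrasts. Of 26 measured PPAR target genes of lipid use, 16 were higher with WY14643 in del337TR (median 0.04) and 20 in controls (median 0.09), where the medians of all probe sets were 0.02 and -0.03. Of all probe sets 53.1% were higher with WY14643 in del337TR and 44.6% in controls. Pdk4, the kinase that shuts off pyruvate oxidation, stood at 0.10 ± 0.09 and 0.12 ± 0.09 from high signals (mean 13144 ± 2125 and 12154 ± 1054 in treated and untreated del337TR, 12847 ± 104 and 11824 ± 916 in treated and untreated controls). Acadvl, the very long chain acyl-CoA dehydrogenase of mitochondria, stood at 0.24 ± 0.08 with WY14643 in controls. Vnn1, a pantetheinase gene that PPARalpha induces in the liver, stood at -0.54 ± 0.24 in del337TR. Ucp3, the mitochondrial uncoupling protein, was lower in treated del337TR (368.1, 575.8 and 945.3) than in treated controls (545.6, 967.4 and 1603.5), by -0.87 ± 0.28 (limma adjusted p = 0.428). Among 10 measured of 12 peroxisomal and microsomal PPAR target genes 8 were higher with WY14643 in del337TR (median 0.05) and 4 in controls (median -0.04). The count and the median in controls lay near those of all probe sets, 44.6% and -0.03. Ehhadh, the peroxisomal bifunctional enzyme of beta-oxidation, stood at 0.51 ± 0.27 in del337TR, and Abcd2 of the same list at -0.51 ± 0.26. In controls Abcd3 stood at 0.24 ± 0.10 and Pex11a at 0.22 ± 0.12. Cyp4a14, a fatty acid hydroxylase that PPARalpha activators induce in mouse liver, stood at -0.92 ± 0.63 in controls. Cyp4a14 signals were low there, from 2.2 to 36.5 with WY14643 and from 5.2 to 51.2 without it.

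The list of PPARgamma target genes of fat cells had 7 of 10 measured members below 0 with WY14643 in del337TR (median -0.24) and 4 of 10 in controls (median 0.07). Of all probe sets 53.1% lay above 0 in del337TR (median 0.02) and 44.6% in controls (median -0.03). No member passed over all probe sets, and 4 had an unadjusted limma p under 0.05 in del337TR, all lower, against 0 of 10 in controls. Over all probe sets 5.78% had one in del337TR and 6.75% in controls. Of those 4 genes 3, Retn, Cidec and Adipoq, are also the fat cell markers, so the list and the marker sum are not separate readings. Retn, the hormone resistin, stood at -1.08 ± 0.33, Cidec, of the lipid droplet, at -2.09 ± 0.67, and Adipoq at -1.30 ± 0.43. Cidec signals were low, from 1.7 to 51.8 over all arrays with a median of 5.1 in treated del337TR. The size of its change therefore depends on how low values are treated. Fabp4, a lipid carrier that capillaries also express, stood at 0.01 ± 0.11 on its brightest probe set. Its dimmer probe sets disagreed, at 0.13 ± 0.11, -0.10 ± 0.20 and -0.73 ± 0.39 with WY14643 in del337TR. Between treated del337TR and treated controls 8 of the 10 lay below 0 (median -0.31, all probe sets 0.04), where 55.6% of all probe sets lay above 0. An unadjusted limma p under 0.05 was found for 5, all lower, against 8.86% of all probe sets. Plin4, a lipid droplet coat gene of fat and muscle, stood there at -0.45 ± 0.16 and Lipe, the hormone-sensitive lipase, at -0.36 ± 0.14. The 2 above 0 were Pck1, at 0.17 ± 0.20, and Lep, at 0.90 ± 0.56 from low signals (9.5 to 44.4 against 2.1 to 29).

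**Figure D3:**
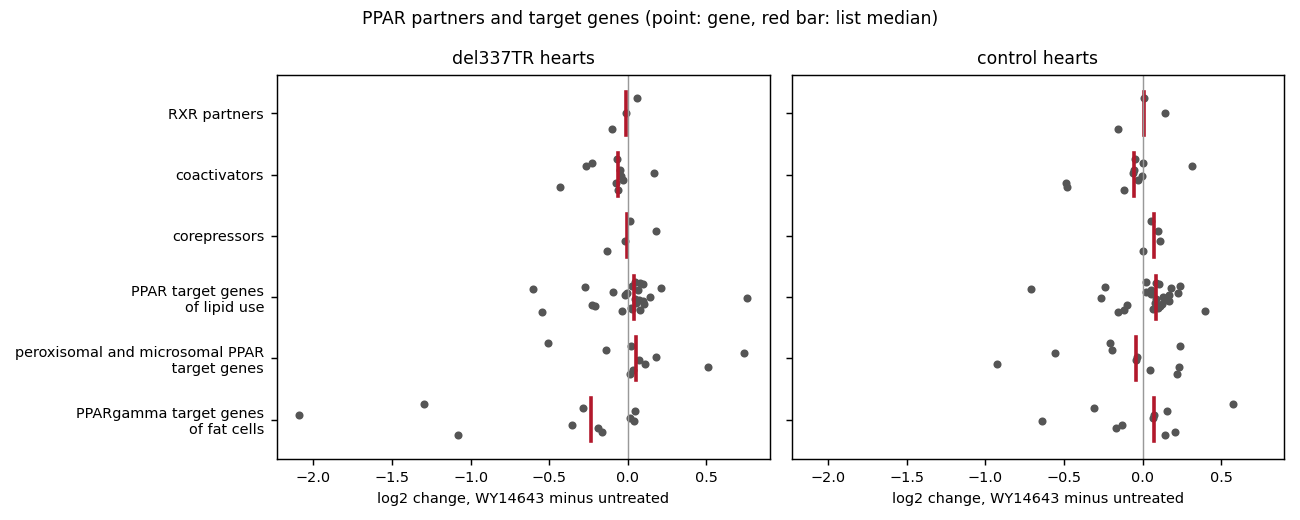
Log2 changes with WY14643 (x axis, WY14643 minus untreated) of the measured genes of 6 lists of PPAR partners and targets (y axis), with del337TR hearts left and control hearts right. The list medians (red bars) lie between -0.24 and 0.09, and Cidec, Adipoq and Retn are the 3 genes left of -1 in del337TR. Cidec signals are low, from 1.7 to 51.8 over all arrays.

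The receptors were then set against fixed genes from array to array, after group means were removed. Of 39 relations, which were the 3 pairs of receptors and each receptor with 12 genes, 1 passed after Benjamini-Hochberg adjustment. Ppara (1449051_at) followed Angptl4, a PPAR target gene that encodes an inhibitor of lipoprotein lipase (Pearson r = 0.74, permutation p = 6e-05, adjusted p = 0.00234, and Spearman rho = 0.71, permutation p = 6e-05, adjusted p = 0.00234, 28 arrays). Without the 2 arrays farthest from the median of Angptl4 r was 0.60. It was 0.79 among the 10 female and 0.71 among the 18 male hearts. By group r was 0.95 in del337TR with WY14643, 0.23 in untreated del337TR, 0.62 in controls with WY14643 and 0.86 in untreated controls, with 7 arrays each. The other Ppara probe sets, added after these values were seen, gave r of 0.77 (1439675_at) and 0.62 (1457721_at). Angptl4 signals ran from 173.7 to 2273.3, both in untreated controls. The lowest was in replicate 3, which also had the lowest untreated Ppara signal on each of the 3 probe sets, and the highest was in replicate 6. Among treated del337TR hearts the highest Angptl4 and Ppara signals were both in replicate 3 (1518.2 and 1001.6), and the lowest both in replicate 7 (289.1 and 480.7). As groups Angptl4 did not differ past the threshold with WY14643, at -0.60 ± 0.46 in del337TR and -0.71 ± 0.46 in controls. A much dimmer probe set of Angptl4 differed from this one, at 1.35 ± 0.61 and 0.00 ± 0.61.

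The receptors did not follow each other past the threshold. Pearson r was -0.03 for Ppard with Ppara (permutation p = 0.876), 0.13 for Pparg with Ppara (permutation p = 0.569) and 0.16 for Pparg with Ppard (permutation p = 0.409), with Spearman rho of -0.16, 0.15 and 0.20. Ppara with Pdk4, another PPAR target, had r = 0.16 and rho = 0.21 (permutation p = 0.474 for r, adjusted p = 0.840), and with Ppargc1a r = 0.35 and rho = 0.26 (permutation p = 0.108 for r, adjusted p = 0.351). Pparg with Rxra had r = 0.51 (permutation p = 0.00736, adjusted p = 0.144) and rho = 0.52, and r was 0.43 without the 2 farthest arrays. With Ucp3 it had r = 0.44 (permutation p = 0.0199, adjusted p = 0.259) and rho = 0.51, with r at 0.38 without them. With Fabp4 it had r = 0.45 (permutation p = 0.0418, adjusted p = 0.326) and rho = 0.40, with r at 0.38. With Pdk4 r was 0.54 (permutation p = 0.0282, adjusted p = 0.275) but rho 0.29, and r was 0.30 without the 2 farthest arrays, so much of that r rested on them. None of these passed after adjustment. None of the 3 receptors followed the thyroid hormone receptor genes Thra and Thrb past the threshold, with r between -0.27 and -0.03. Nor did any follow the atrial gene Myl4 or the slow myosin gene Myh7 past it.

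**Figure D4:**
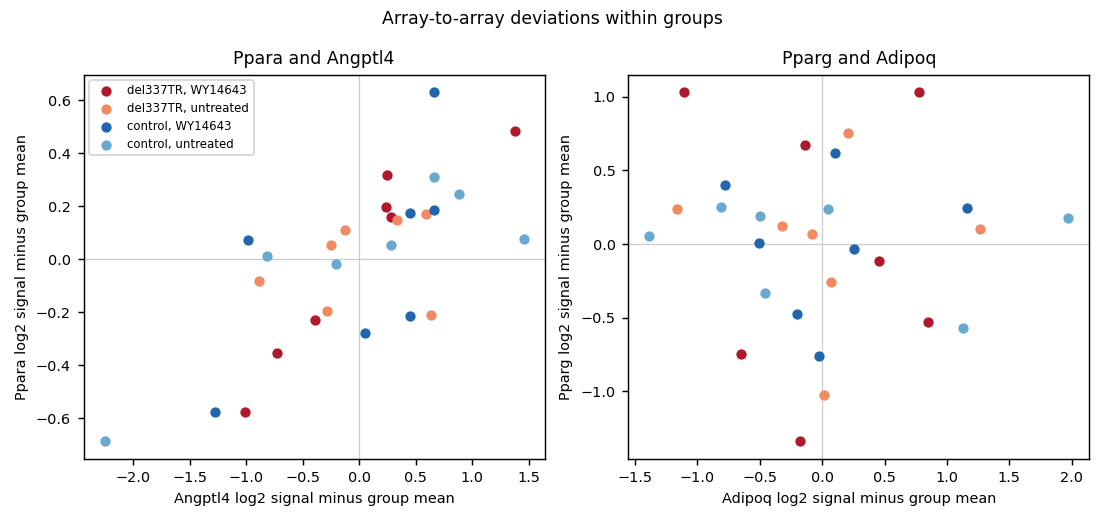
Log2 signal minus group mean on 28 arrays, Ppara (1449051_at, y axis) against Angptl4 (x axis) at left and Pparg (y axis) against Adipoq (x axis) at right, coloured by group. The left panel slopes up (r = 0.74) and the right panel does not (r = -0.05).

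Over 13334 other genes, each by its brightest probe set and with group means removed, the genes most like Ppara (1449051_at) over the 28 arrays were Zfp644 (r = 0.89), Plekhf1 (r = 0.85), Ppp4r3b (r = 0.83), Vps18 (r = 0.83) and Gmfb (r = 0.80), and Angptl4 ranked 26th. Those most opposed were Kit (r = -0.73), Ylpm1 (r = -0.69), Abca8a (r = -0.69), Akap12 (r = -0.68) and Ifitm1 (r = -0.67). The genes most like Ppard (1439797_at) were less close, from Fam160a2 (r = 0.67) and Ikbkb (r = 0.64) through Foxn3 (r = 0.61) and Krtap10-4 (r = 0.61) to Mc5r (r = 0.58), and Syt4 (r = -0.70), Vat1l (r = -0.65), Atp9a (r = -0.64), Haus7 (r = -0.61) and Tac1 (r = -0.61) were most opposed. For Pparg they were Rab3ip (r = 0.73), Yars2 (r = 0.70), Gadd45gip1 (r = 0.68), Zcchc7 (r = 0.66) and Ilrun (r = 0.66), and at the other end Cfi (r = -0.71), Gdf2 (r = -0.71), Zfp729a (r = -0.71), Stx7 (r = -0.69) and Inha (r = -0.68). Of the 25 lipid use target genes in this ranking 22 had an r above 0 with Pparg (median 0.28, all genes -0.02), 15 with Ppara (median 0.03, all genes 0.01) and 13 with Ppard (median 0.05, all genes -0.0019). The shares of all genes with an r above 0 were 46.1%, 51.4% and 49.6%, in the same order. These are descriptions over the same 28 libraries, whose RNA quality and tissue makeup all genes share.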

How the data were processed

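Hearts of 28 mice in 4 groups of 7 were measured. The authors' deposited intensity values were linear, 1 per probe set and array, with 45101 probe sets. Per the submitters' processing notes RMA was used, but the values were not on the log2 scale that RMA gives, and their mean, with 2% cut from both tails, equalled 250 for all arrays. They were treated as globally scaled signals. No batch is given in the sources used here, and no 2 arrays held identical values. The number of arrays limits the precision.

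The 64 AFFX controls were left out, signals were floored at 0.1 and log2 transformed, and group means of all 28 arrays were fitted in R 4.3.3 by limma 3.58.1 with moderated variances (24 residual degrees of freedom, two-sided, Benjamini-Hochberg over 45037 probe sets per contrast). A gene with several probe sets was represented by the brightest. Of the tested probe sets 34945 had 1 symbol, 932 several and 9160 none in the annotation, and only those with 1 named a gene. Listed genes without such a probe set were not analysed here, so the fat cell score used 3 of 5 markers. Correlations used group-centred log2 signals and 100000 permutations within groups, two-sided. Named genes were every PPAR probe set, a fixed set of 12 partners, targets and markers, the 5 genes most and least like each receptor above the 40th percentile of mean signal, and the 3 members of each list with the smallest p in a contrast. The members and lists were chosen with earlier results of these data known, and the lists come from general knowledge. The fit was tested on simulated data. Alternatives were 16 added to each signal, a filter on dim probe sets, a mean-variance trend with robust moderation, weighting of arrays, quantile normalization, median centring, a fit on just the groups compared, replicate number as block, atrial, fat cell and sex covariates, the mean of a gene's probe sets, and leaving out each array.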

Additional observations from a re-analysis of the deposited data

Results flagged for a closer look

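Of 28 groups of 7 signals (7 probe sets in 4 groups), 4 had 1 array whose gap to the next exceeded Dixon's critical value of 0.568 for 7 samples on the log2 scale, where chance gives about 1 in 20 groups. Replicate 3 of the untreated controls was low for Ppara, at 400.2 on 1439675_at (next lowest 665.2) and at 694 on 1449051_at (next lowest 1104.1). These are 2 readings of the same RNA, and Angptl4 was at 173.7 on that array. For Ppard, replicate 1 of the controls with WY14643 was high at 381.9 on 1439797_at (next highest 242.3). Replicate 2 of del337TR with WY14643 was high at 16.8 on the dim probe set 1425703_at (next highest 7.3).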

How the results depend on the processing

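No PPAR probe set was called under any alternative run, and the lowest limma adjusted p was 0.229, for Ppard between strains under WY14643 without replicate 3 of the treated controls. This count covered all 7 probe sets, except that the filter on dim probe sets left out 1425703_at and 1447902_at and that the mean of probe sets was taken per gene. Of 1634 log2 changes of the 6 probe sets given a fold 21 turned sign, and 0 passed the threshold. Between untreated strains the Ppara probe set 1457721_at stood at 0.02 and turned to -0.0092 with array weights, -0.0153 with the atrial score and -0.0029 with the fat cell score, and ran from -0.0881 to 0.13 with 1 array left out. The Ppara probe set 1439675_at ran from -0.19 to 0.0079 there with 1 array left out, and Ppard (1439797_at) stood at 0.01, at -0.0163 with the atrial score, and ran from -0.0779 to 0.10. For 1457721_at the range with 1 array left out was -0.0899 to 0.0239 for strain over both treatments and -0.22 to 0.0021 for the difference between the WY14643 effects. The cause was not tested. The r of Pparg with Myh7, 0.02, turned to -0.04 with quantile normalization and -0.01 with 16 added. One of the 39 relations passed in each of these settings. The replicate number as a block left the count of PPAR calls at 0, with Ppard between strains under WY14643 at -0.67 ± 0.18 (limma adjusted p = 0.363). The deviations of arrays with the same number correlated from -0.12 to 0.19 (mean 0.033, against -0.005 for different numbers), and 9 of 28 arrays were closest to one of their own number in another group. The labels name these numbers only as replicates, and the main fit did not take them as pairs. Across groups 42 pairs of arrays had the same number and 252 had different numbers, so the former were the smaller part of the pairs searched. Whether arrays of the same number share something was not tested, and these values cannot exclude it. Over all probe sets, the count called in contrasts with 0 calls was 0 or 1 under the alternatives, except 3 for WY14643 in controls fitted on those groups only. For strain without WY14643 it was 1 as reported and 0 or 1 under the alternatives. Signals of Pparg and of 1447902_at are low, so their folds shrink with 16 added, to -0.69 for Pparg with WY14643 in del337TR.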

Other observations

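Lncppara, a long noncoding RNA gene near Ppara on the RefSeq map that hosts let-7 microRNAs, was looked at after its values were seen. Its lowest, median and highest signals were 19.8, 33.7 and 80.3 in del337TR with WY14643 and 26.1, 74.6 and 139.6 in untreated del337TR, a log2 difference of -0.93 ± 0.39 (limma adjusted p = 0.839). In controls they were 19.4, 42.7 and 124.9 with WY14643 and 30.3, 56.6 and 83.5 without, a log2 difference of -0.07 ± 0.39.

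The coactivator gene Ppargc1a was higher in treated del337TR than in treated controls on each of the 5 probe sets, from 0.45 ± 0.24 to 0.56 ± 0.20, and none passed the test (lowest limma adjusted p = 0.436).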
